A study of Rattus norvegicus with 6 samples.

Results

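The genes described here encode the gap junction and pannexin channels known from the arterial wall: the connexins Gja1, Gja4, Gja5, Gjb2 and Gjc1 and the pannexin Panx1. They were picked out by symbol alone, and 5 of the 6 had a row among the 14475 genes of the count table. Gja5 had no row, so no value is given for it. The table lists only genes that passed a filter on low counts. RNA came from VSM cells grown in serum-containing medium from the soleus feed artery (SFA), the vessel that supplies the soleus muscle, of male Fischer 344 rats that received no other treatment named in the labels. The young group was 3 cultures from rats aged 4 months and the old group 3 cultures from rats aged 24 months, with 1 polyadenylated RNA library per culture. Passage number is not given in the sources used here, and cultured cells are a model of the vessel wall without its blood flow, pressure or endothelium. Total counts on genes were between 44235674 and 59700887 per library.

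Connexins assemble into channels that dock between neighboring cells and pass ions and small molecules, which lets the smooth muscle cells of an artery share electrical and calcium signals. In the vessel wall, Cx43, Cx37, Cx40 and Cx45, the products of Gja1, Gja4, Gja5 and Gjc1, are the usual connexins, with Cx37 and Cx40 best known from endothelium. Pannexins share the fold of connexins but mostly form channels to the outside of the cell, through which ATP is released.

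Levels are given as CPM, counts scaled to the TMM-normalized library size, and a fold change is old relative to young. A gene was called when edgeR's quasi-likelihood test gave a Benjamini-Hochberg adjusted p under 0.05 over all 14475 genes and its log2 fold change was 1 or more in either direction. By these thresholds edgeR called 0 of the 5 genes, against 0.00691% of all genes, and limma-voom also called 0. Before adjustment, 3 of the 5 had an edgeR p under 0.05, against 22.6% of all genes. The DESeq2 Wald test with the same thresholds called 3 of the 5, against 5.56% of all genes. These 3 were Gja1, which was higher in old VSM cells, and Gja4 and Gjb2, which were lower. Gja4 passed the filter on low counts only through the young group, so it is no support for a share above that of all genes. Gjc1 and Panx1 were called by no test. Sequence lengths of the transcripts were not used, so levels are compared between groups for 1 gene and not between genes.

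The region before the RefSeq transcription start is shown for the 3 genes with the largest differences between the age groups, 1 higher and 2 lower in old. Each line gives the 250 bases upstream of the start, 5′ to 3′ on the gene's strand, from RefSeq on the assembly GRCr8, which is not the assembly the reads were aligned to. The windows are chr20:36302314-36302563 on the plus strand for Gja1, chr5:144920325-144920574 on the minus strand for Gja4 and chr15:35381954-35382203 on the minus strand for Gjb2. Capitals mark TGANTCA, the site of AP-1 factors, and GGGCGG or its complement, the site of Sp1 factors.
Gja1: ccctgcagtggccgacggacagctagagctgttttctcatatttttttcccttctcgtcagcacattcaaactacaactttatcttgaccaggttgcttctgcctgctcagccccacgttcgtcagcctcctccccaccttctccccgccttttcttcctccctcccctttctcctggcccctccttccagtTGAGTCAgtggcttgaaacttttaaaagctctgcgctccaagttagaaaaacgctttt
Gja4: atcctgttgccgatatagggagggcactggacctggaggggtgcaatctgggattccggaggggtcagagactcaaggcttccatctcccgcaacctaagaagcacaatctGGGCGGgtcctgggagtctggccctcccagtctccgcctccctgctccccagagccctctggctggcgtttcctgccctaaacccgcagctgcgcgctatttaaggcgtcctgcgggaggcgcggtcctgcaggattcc
Gjb2: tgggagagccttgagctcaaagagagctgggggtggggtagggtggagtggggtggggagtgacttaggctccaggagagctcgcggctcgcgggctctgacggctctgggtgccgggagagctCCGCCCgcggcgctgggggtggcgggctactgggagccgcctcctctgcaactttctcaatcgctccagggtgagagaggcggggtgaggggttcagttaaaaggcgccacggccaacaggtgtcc
The Gja1 window held TGANTCA once, starting 58 bases before the start, and no GGGCGG. The Gja4 and Gjb2 windows held GGGCGG once each, starting 139 and 126 bases before the start and in Gjb2 on the opposite strand, and no TGANTCA. Over the 33469 windows of the same length in the table, both strands searched, 6.34% held TGANTCA and 30.5% held GGGCGG. The E box CANNTG was found once in each of the 3 windows, where 65.5% of all windows held it, and in Gja1 it overlapped the TGANTCA match. The CArG box, the site of serum response factor, was found in none of the 3 and in 1.5% of all windows. A match is a description of these letters and does not show binding of a factor.

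Gja1 (ENSRNOG00000000805) encodes Cx43, the main connexin of cultured smooth muscle. Its level was 262, 123 and 60.7 CPM in young replicates 1, 2 and 3 and 565, 617 and 503 CPM in old replicates 1, 2 and 3. The groups did not overlap, as in 29.2% of all genes, and even the highest young library lay below the lowest old library. Young libraries averaged 149 ± 103 CPM and old libraries 562 ± 56.9 CPM (SD, n = 3 each), and the old mean was 3.78 times the young mean. The young libraries differed among themselves by 4.32 times and the old libraries by 1.23 times. The log2 fold change was 1.92 (standard error 0.50, 95% interval 0.71 to 3.12) with an adjusted p of 0.116 from edgeR. DESeq2 gave an adjusted p of 0.00138, and its call held with each library left out in turn, with log2 fold changes from 1.54 to 2.60. Of all 14475 genes, 176 had a larger fold change upward.

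Gjc1 (ENSRNOG00000048838) encodes Cx45, the other connexin usually found in smooth muscle. It had 14.04, 12.2 and 23.0 CPM in the young libraries and 14.96, 10.1 and 12.2 CPM in the old libraries. The groups overlapped, and young replicate 3 stood above all other libraries. Young libraries averaged 16.4 ± 5.76 CPM and old libraries 12.4 ± 2.42 CPM (SD, n = 3 each). The log2 fold change was -0.40 (standard error 0.27, 95% interval -1.06 to 0.26, adjusted p = 0.407 from edgeR), and without young replicate 3 it was -0.08. The interval includes no change and reaches just past the threshold of -1.

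Gja4 (ENSRNOG00000014357), which encodes Cx37, was the least abundant of the 5 by counts. Counts were 54, 223 and 98 in young replicates 1, 2 and 3, whereas old replicates had 5, 0 and 6. In CPM these were 1.196, 3.71 and 1.99 in young and 0.101, 0 and 0.112 in old, so that the groups did not overlap and the old libraries were near the lower end of detection. The study's filter on low counts used 10 counts as its limit, which only the young libraries reached. As worded, it removes genes below that limit in at least 3 libraries, which would include Gja4. Gja4 has a row, so the filter applied differed from that wording. With 10 counts needed in at least 3 libraries, Gja4 passed through the young group alone. A gene kept in this way can hardly overlap between the groups, so the missing overlap is no separate support. The rank and the p values below come from the same counts and are no separate support either. The 0 counts of old replicate 2 allow up to 3 counts, or 0.0577 CPM, for counting error only, and more where both mates of a pair were counted. Young libraries averaged 2.30 ± 1.28 CPM and old libraries 0.0708 ± 0.0616 CPM (SD, n = 3 each), a mean 32.5 times lower. The log2 fold change was -4.98 (standard error 0.88, 95% interval -7.09 to -2.86, adjusted p = 0.0644 from edgeR), which ranked 8 among all 14475 genes downward. DESeq2 gave an adjusted p of 1.06e-07, and at most 0.000508 with any library left out. With each library left out in turn, edgeR's log2 fold change stayed between -5.47 and -4.41, with adjusted p from 0.0511 to 0.232.

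Because Cx37 is also an endothelial connexin, endothelial genes were read in the same libraries. Of 12 such genes, 7 had a row, and Cdh5, Tie1, Nos3, Emcn and Cldn5 had none. The summed level of the 7 was 36.1 to 45.4 CPM in young and 33.0 to 44.5 CPM in old, most of it from Egfl7 and Tek. Pecam1 had 0.665, 0.665 and 0.244 CPM in young and 0.462, 0.693 and 0.765 CPM in old. Among the 7, only Erg had groups that did not overlap, or 14.3% against 29.2% of all genes. Erg had 2.46, 6.85 and 3.44 CPM in young and 0.362, 0.904 and 1.85 CPM in old (adjusted p = 0.159 from edgeR and 0.0194 from DESeq2). The young library highest in Gja4, replicate 2, was also the highest in Erg and the lowest in Tek. In these bulk libraries, fewer cells of a type and less RNA per cell cannot be told apart.

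Gjb2 (ENSRNOG00000008855) encodes Cx26, a connexin best known from epithelia and the inner ear. It had 68.2, 97.2 and 18.1 CPM in the young libraries and 14.2, 28.0 and 5.30 CPM in the old libraries. The groups overlapped, since old replicate 2 lay above young replicate 3. Young libraries averaged 61.2 ± 40.0 CPM and old libraries 15.8 ± 11.4 CPM (SD, n = 3 each), a mean 3.86 times lower. Libraries of 1 group differed by up to 5.38 times in young and 5.28 times in old, more than the difference between the means. The log2 fold change was -1.95 (standard error 0.77, 95% interval -3.81 to -0.09, adjusted p = 0.208 from edgeR). DESeq2 gave an adjusted p of 0.0381, which was lost when either of young replicates 1 and 2 or old replicates 1 and 3 was left out (0.163, 0.291, 0.209 and 0.150). Epithelial genes were nearly all without a row. Of 8 listed, among them Epcam, Cdh1 and Krt5, Krt8 alone was in the table, at 2.36 to 3.23 CPM in young and 3.24 to 3.58 CPM in old.

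Panx1 (ENSRNOG00000010060) encodes a channel that releases ATP from many cells, including smooth muscle of small arteries. It had 8.53, 7.56 and 6.07 CPM in the young libraries and 6.69, 9.43 and 11.3 CPM in the old libraries. The groups overlapped through old replicate 1. Young libraries averaged 7.39 ± 1.24 CPM and old libraries 9.15 ± 2.34 CPM (SD, n = 3 each). edgeR put the log2 fold change at 0.31 (standard error 0.24, 95% interval -0.26 to 0.88, adjusted p = 0.455 from edgeR). The interval lies below the threshold of 1 and includes no change. The smallest p that an exact two-sided permutation test allows for 3 against 3 libraries is 0.1. Gja1 and Gja4 reached it, while Gjb2 had 0.2 and Gjc1 and Panx1 had 0.4. It is reached where the groups do not overlap, which held for 2 of the 5 genes and for 29.2% of all genes. The p of Gja4 followed from passing the filter on low counts through the young group alone and is no support.

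**Figure D1:**
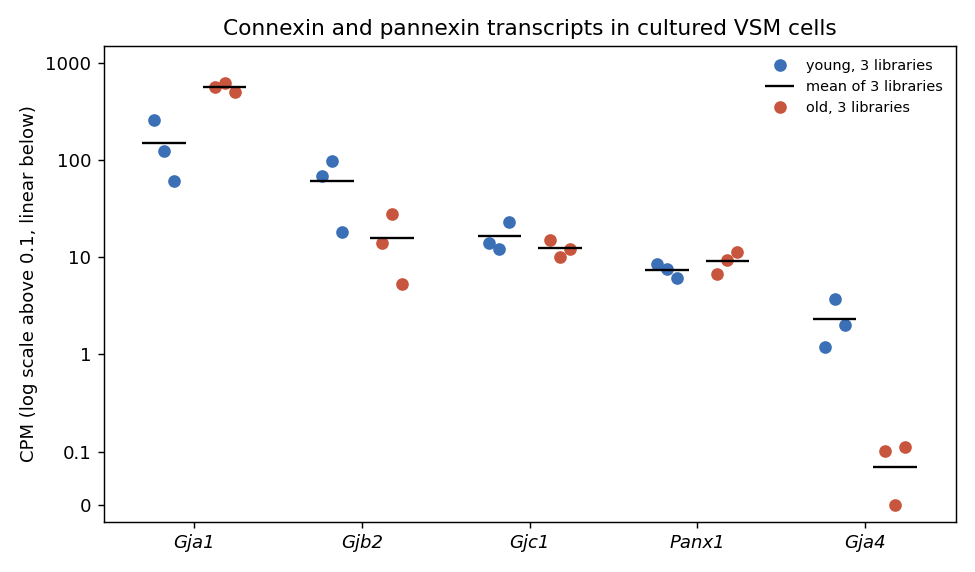
CPM of the 5 genes (y axis, log scale above 0.1 and linear below) in each of the 3 young (blue) and 3 old (red) libraries, with the mean of each group as a bar. Gja1 and Gja4 separate the groups in opposite directions, while Gjb2, Gjc1 and Panx1 overlap. The groups also do not overlap for 29.2% of all genes. Heights of different genes are not comparable because no length was used.

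The ratio of genes within 1 library does not depend on the scaling between libraries. There were 18.7, 10.1 and 2.64 Gja1 counts for each Gjc1 count in the young libraries and 37.8, 60.8 and 41.2 in the old libraries. For each Gjb2 count there were 3.84, 1.27 and 3.36 Gja1 counts in young and 39.8, 22.0 and 94.97 in old. For each Panx1 count there were 30.7, 16.3 and 10 Gja1 counts in young and 84.4, 65.4 and 44.4 in old. In all 3 ratios the old libraries lay above the young ones, with differences of the mean log2 ratio of 2.52, 4.10 and 1.87 and an exact permutation p of 0.1 each, the smallest that this design allows. All 3 share Gja1, whose own level already separated the groups, so they are not independent results. The ratio of Gjb2 to Gjc1 overlapped between the groups, at 0.787 to 7.96 in young and 0.434 to 2.76 in old (exact permutation p = 0.3). Genes of different length yield different counts per transcript, so the ratios can be compared between libraries but are not ratios of molecules.

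Connexin counts were made up differently in the age groups, which is not independent of the Gja1 level above. Of the counts on 5 connexin genes, the 4 above and Gjb5, Gja1 took 75.8%, 52.1% and 58.4% in the young libraries and 95.03%, 94.2% and 96.6% in the old libraries. Gjb2 took 19.7%, 41.0% and 17.4% in young and 2.39%, 4.27% and 1.02% in old. Gjc1 took 4.06%, 5.155% and 22.1% in young and 1.55% to 2.52% in old. As parts of 1 total, the shares of the other genes fall when Gja1 is higher. The level of Gjc1 itself overlapped between the groups. The summed level of the 5 genes was 346, 237 and 104 CPM in young and 594, 655 and 521 CPM in old. Most of that sum was Gja1 in every library, and young replicate 3 had both the lowest sum and the largest share of Gjc1.

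**Figure D2:**
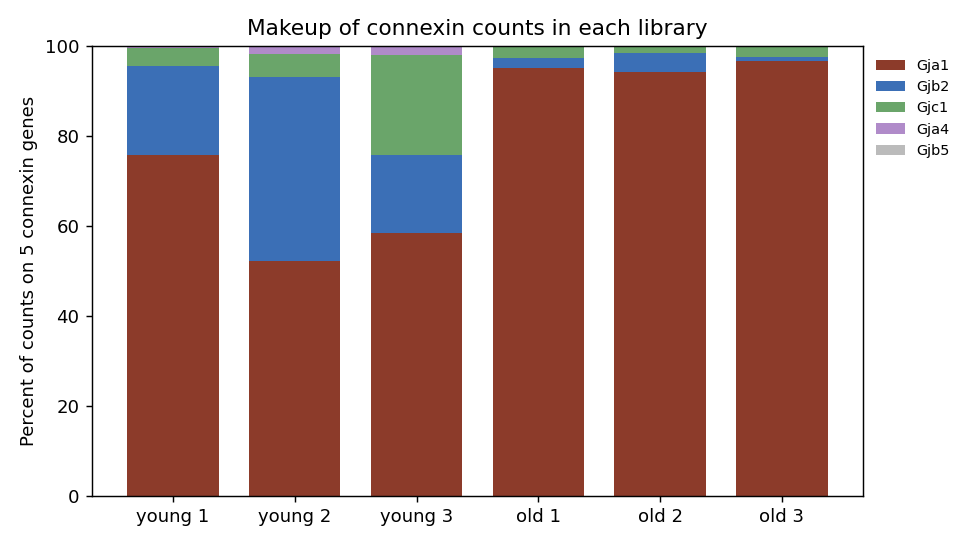
Percent of the counts on 5 connexin genes (y axis) taken by each gene in the 6 libraries (x axis), as stacked bars from 0 to 100. Gja1 fills 94.2% to 96.6% of each old bar and 52.1% to 75.8% of each young bar, and Gjb2 takes most of the rest in young replicates 1 and 2. The shares are tied to the level of Gja1 and are not a separate result.

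Other genes of the connexin and pannexin families were Gjb5, Panx2 and Panx3, all of low level. Panx2 had 16, 14 and 8 counts in young and 20, 40 and 56 counts in old, without overlap, and edgeR estimated 1.56 ± 0.49 (SE) on the log2 scale (adjusted p = 0.152 from edgeR and 0.0725 from DESeq2). Panx3 overlapped between the groups, with 22, 86 and 51 counts in young and 8, 79 and 82 in old, and its log2 fold change was 0.12 in edgeR and -0.32 in limma-voom. Gjb5 had at most 26 counts in a library, with a log2 fold change of -0.74 (95% interval -2.38 to 0.90). Of the 8 family genes described, 4 were higher and 4 lower in old, and the median of their log2 fold changes was -0.14 against 0.02 over all genes. The libraries of the age groups did not overlap for 3 of the 8, namely Gja1, Gja4 and Panx2, against 29.2% of all genes. Gja4 is counted here although it passed the filter on low counts only through the young group.

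**Figure D3:**
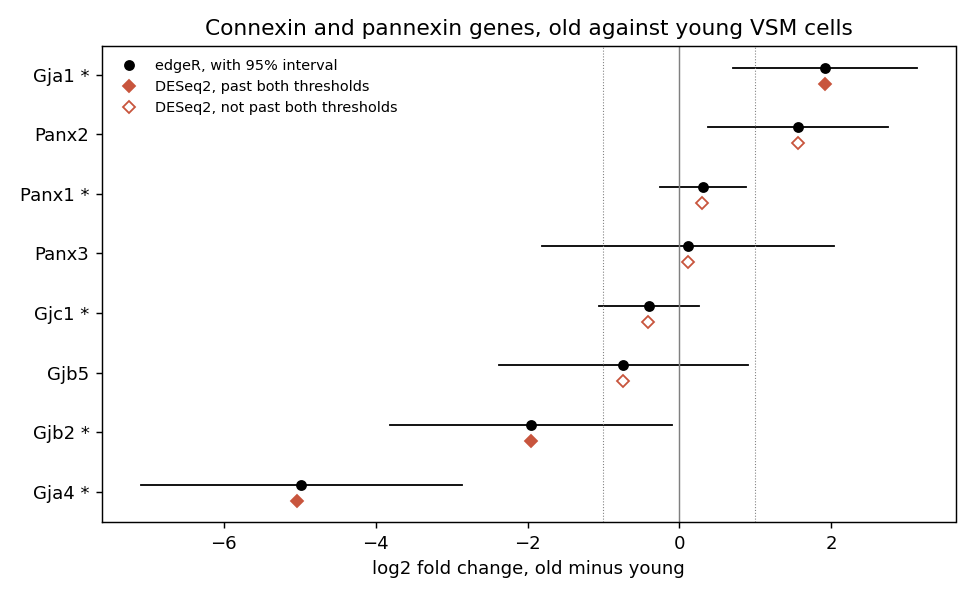
Log2 fold change of old minus young (x axis) for 8 connexin and pannexin genes, the 5 main ones with an asterisk, by edgeR (black, with 95% interval of the single gene) and DESeq2 (red diamonds, filled where both thresholds were passed). Estimates of the 2 tools lie together, from -4.98 for Gja4 to 1.92 for Gja1 in edgeR, and dotted lines mark -1 and 1.

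Partners and regulators of connexins were read from a list of 34 symbols, of which 32 had a row and Nov is an older name of Ccn3. The list covers scaffolds, caveolins, kinases, ubiquitin ligases and trafficking proteins. edgeR called 0 of the 32, against 0.00691% of all genes. Without old replicate 1 it called 2, against 732 of all 14475 genes. DESeq2 called 3, all lower in old, which is 9.38% of the list against 5.56% of all genes. With edgeR p values under 0.05 before adjustment, 3 were higher and 6 lower, together 28.1% against 22.6% of all genes, and the median log2 fold change was -0.09. Ccn3, a matricellular protein known to bind the tail of Cx43, had 1075, 1958 and 736 CPM in the young libraries and 111, 267 and 188 CPM in the old libraries. Every old library was below every young one, the opposite of Gja1, at -2.74 ± 0.47 (SE) on the log2 scale (adjusted p = 0.0638 from edgeR). Tjp1, the ZO-1 scaffold that binds Cx43, had 161 ± 7.13 and 173 ± 14.4 CPM (SD, n = 3 each), with a log2 fold change of 0.10 and a 95% interval of -0.13 to 0.34. The neural cadherin gene Cdh2, whose product joins the cells that gap junctions connect, had a log2 fold change of -0.25 (95% interval -0.53 to 0.02). Cav1, the caveolin of smooth muscle, averaged 925 ± 207 CPM in young libraries and 424 ± 174 CPM in old ones (SD, n = 3 each), or -1.12 on the log2 scale (adjusted p = 0.128 from edgeR). Hspa9, a chaperone of mitochondria, had 338, 420 and 452 CPM in young and 548, 541 and 562 CPM in old. Its groups did not overlap, at 0.45 ± 0.14 (SE) on the log2 scale (adjusted p = 0.143 from edgeR).

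ATP released through pannexin or connexin channels acts on P2 receptors and is broken down to adenosine outside the cell. They were read from a list of 32 genes, which also holds the alpha-1 adrenergic receptors Adra1a, Adra1b and Adra1d. Of the 32, 24 had a row, Adra1a and Adra1d among them, and P2rx1 and P2ry1 had none. edgeR called 0 of the 24, against 0.00691% of all genes, or 1 without old replicate 1, where it called 732 of all 14475 genes. DESeq2 called 3 higher and 3 lower in old, 25.0% of the list against 5.56% of all genes. With edgeR p values under 0.05 before adjustment, 5 were higher and 6 lower (45.8% against 22.6%), and the median of the list was 0.24 on the log2 scale. Among those higher, Entpd3 and P2rx6 reached 10 counts only in old libraries and passed the filter on low counts through that group alone. Entpd3 was also among the 3 that DESeq2 called higher. Among those lower, P2ry6 had 14, 96 and 252 counts in young and 4, 10 and 4 in old, so it passed the filter through the young group. P2ry6 was also among the 3 that DESeq2 called lower. Entpd3, P2rx6 and P2ry6 are therefore no support for a share above that of all genes. Adra1a and Adra1d were among the genes that passed neither. Enpp1, which splits ATP and yields pyrophosphate, averaged 725 ± 269 CPM in young libraries and 227 ± 76.9 CPM in old ones (SD, n = 3 each), or -1.68 on the log2 scale (adjusted p = 0.0924 from edgeR). Its relative Enpp3 had 93.4 ± 26.8 and 276 ± 75.4 CPM (SD, n = 3 each), or 1.56 on the log2 scale (adjusted p = 0.0638 from edgeR). Ada, which deaminates adenosine, had 26.7, 23.8 and 30.7 CPM in young and 13.1, 15.4 and 13.2 CPM in old. The groups did not overlap, at -0.96 ± 0.13 (SE) on the log2 scale (adjusted p = 0.0531 from edgeR). P2rx3, an ATP-gated channel best known from sensory neurons, was low throughout, averaging 1.11 ± 0.0811 CPM in young and 2.36 ± 0.199 CPM in old libraries (SD, n = 3 each) (adjusted p = 0.0762 from edgeR).

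**Figure D4:**
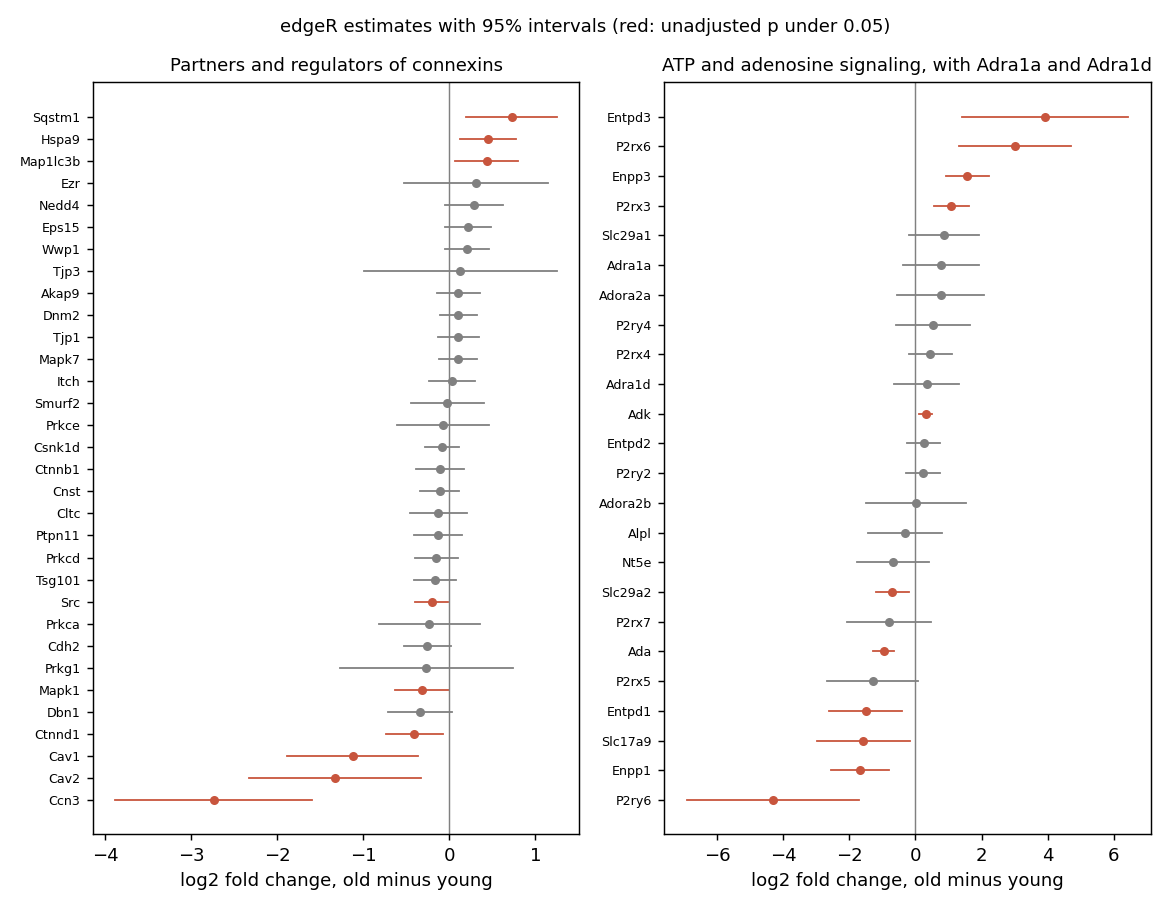
Log2 fold change of old minus young (x axis) by edgeR with the 95% interval of each single gene, for 32 partners and regulators of connexins (left) and 24 genes of the list of ATP and adenosine signaling, Adra1a and Adra1d included (right), with red for an unadjusted p under 0.05. Ccn3 is lowest on the left at -2.74, and the right panel spreads from P2ry6 at -4.31 to Entpd3 at 3.93. P2ry6 had few counts in the old libraries, and Entpd3 had few in both age groups.

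The cultures were checked against markers of smooth muscle and other cells, and their part in the connexin values was not tested. Acta2 and Myh11 were present in all libraries, and the 10 contractile genes listed summed to 11260 to 21380 CPM in young and 3459 to 5576 CPM in old. All 10 were lower in old by edgeR's estimate, with -1.96 as the median on the log2 scale. The groups did not overlap for 9 of them, against 29.2% of all genes, and DESeq2 called 7, against 5.56% of all genes. The library highest in Gja1 among the young, replicate 1, was the lowest young library in Acta2 (4972 CPM), and young replicate 3, lowest in Gja1, was the highest (10381 CPM). Of 10 fibroblast genes, 9 had a row, and they summed to 759 to 1061 CPM in young and 1311 to 2253 CPM in old, with 8 higher in old. Pdgfra, which defines fibroblasts, had 307, 242 and 153 CPM in young and 376, 635 and 381 CPM in old, without overlap (adjusted p = 0.159 from edgeR). Col15a1, the exception, went the other way, with 331, 344 and 497 CPM in young and 136, 99.9 and 109 CPM in old. Of the 9, 4 had groups that did not overlap, or 44.4% against 29.2% of all genes, and Pi16, Scara5, Lum, Dpt and Cd34 overlapped. Macrophage genes summed to at most 16.8 CPM with 3 of 8 in the table, and Ptprc had no row. Sox10 and Myod1 also had no row. Of 8 Schwann cell genes, 4 had a row and summed to 257 to 347 CPM in young and 374 to 405 CPM in old, mostly Pmp22, which other cells also express. Of 10 skeletal muscle genes, 4 had a row and summed to 102 to 202 CPM in young and 18.8 to 61.0 CPM in old. edgeR called 0 genes of these lists, against 0.00691% of all genes. Without old replicate 1 it called 4 contractile, 2 fibroblast and 1 skeletal muscle gene, against 732 of all 14475 genes. With all libraries, it gave a p under 0.05 before adjustment for 9 contractile, 5 fibroblast, 3 skeletal muscle, 1 Schwann cell and 1 endothelial gene, against 22.6% of all genes. DESeq2 called 2 fibroblast genes higher in old (Col14a1 and Dcn) and 1 lower (Col15a1), and 2 skeletal muscle genes and 1 endothelial gene, all lower, but 0 of the macrophage, Schwann cell and epithelial genes, against 5.56% of all genes.

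Genes whose log2 CPM followed each member most closely over the 6 libraries were taken from 11425 genes with a symbol and a mean of at least 1 CPM. For Gja1 these were Mospd3, Snx1 and Gpr146 (Pearson's r 0.998, 0.995 and 0.993). Gja4 was followed by Eogt, Rrm2b and Tlr6 (r 0.998, 0.995 and 0.994) and Gjb2 by Skic3, Tmem248 and Cmc4 (r 0.992, 0.989 and 0.987). For Gjc1 they were Tubgcp2, Fkbp4 and Loxl2 (r 0.993, 0.990 and 0.988) and for Panx1 Cbx7, Polr2h and Pus10 (r 0.998, 0.992 and 0.990). These are the highest of many correlations over 6 libraries in 2 age groups and are given as a description. They do not mean an equal size of difference, since Mospd3 differed by 0.42 and Eogt by -0.53 on the log2 scale.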

How the data were processed

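The authors deposited raw, unnormalized counts of reads on each gene. Per the Methods and the labels, reads were trimmed with cutadapt 3.5 through Trim Galore 0.6.7, aligned with STAR 2.7.10b to Rnor 6.0, and counted with featureCounts of Subread 2.0.8. The Methods name a RefSeq annotation whereas the rows carry Ensembl identifiers, so the gene models behind each count are not known. The sources used here do not state the strand, mate and multi-mapping settings, so reads shared with near-identical genes or an antisense neighbor cannot be told apart. Of low counts (1 to 19), 68.7% to 71.1% per library were even. Total counts on genes were also above the read depth per sample that the study states. At least some read pairs were thus counted more than once, as when both mates are counted. The counting error of low counts is then larger than it looks.

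All 14475 rows were fitted in R 4.3.3 with edgeR 4.0.16 (TMM, quasi-likelihood F test, age as the only factor, Benjamini-Hochberg adjustment). The standard error is the absolute log2 fold change over the square root of F, and the 95% interval uses the t distribution of the fit. DESeq2 1.42.0, the test of the study, and limma-voom (limma 3.58.1) were alternatives, and 292 genes had no adjusted p in DESeq2. A prior count of 2 was used for log2 CPM. The scripts were tested on simulated counts. The rule for the members names symbols and uses no measured value, but members and lists were chosen with earlier results of these data known. Named were the 5 members, other connexin and pannexin genes, Tjp1, Cdh2, Cav1, Ccn3 and the 3 partners and 4 ATP and adenosine genes with the lowest p, the 3 genes most like each member, and defining cell type markers. Erg, Egfl7, Tek, Krt8, Pmp22, P2ry6, P2rx6, Entpd3 and the fibroblast genes other than Pdgfra were chosen after their values were seen, as were the promoter motifs. Labels name replicates without saying whether they are separate rats, and the study states 3 rats per group. Some genes that this rule or the lists would include are not reported here and were left out of the counts of their lists, though not of the fit.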

Additional observations from a re-analysis of the deposited data

How the results depend on the processing

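Directions of the 5 genes held in every alternative that gave a value, 15 for each gene and 14 for Gja4, which a minimum of 10 counts in 4 libraries removed. Of these, 1 only dropped the fold change threshold and kept the main fit, so its directions could not change. DESeq2 alone called any of them, 3 in all, with log2 fold changes of 1.91 for Gja1, -5.03 for Gja4 and -1.96 for Gjb2. edgeR called 1 gene over the whole table, DESeq2 805 and limma-voom 0. With each library left out in turn edgeR called 0 to 732 genes, with 732 without old replicate 1, and 0 of the 5 members each time. Leaving out libraries moved edgeR's log2 fold change from 1.54 to 2.61 for Gja1, from -5.47 to -4.41 for Gja4, from -2.65 to -1.44 for Gjb2, from -0.58 to -0.08 for Gjc1 and from 0.13 to 0.49 for Panx1. RLE factors, library size only, halved counts and other filters on low counts changed no call. DESeq2 with libraries left out was added after seeing the data. Under DESeq2, partners went from 0 to 3 calls and ATP and adenosine genes from 0 to 6, and without old replicate 1 edgeR called 2 and 1 of them, as well as 4 contractile, 2 fibroblast and 1 skeletal muscle gene. The cause of these differences was not tested.

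The replicate numbers are not stated to pair the cultures, and deviations of same-numbered libraries correlated at 0.06, 0.32 and 0.31, so that not every library was most like its own number. With the replicate block edgeR called 1 gene and 0 members. For Gjb2 the block gave a log2 fold change of -1.94 with a standard error of 0.14 and an adjusted p of 0.0637, against 0.77 and 0.208 without it. For Gja4 edgeR's adjusted p was higher with the block, at 0.116 against 0.0644, and for Panx1 at 0.557 against 0.455. For Gja1 it was 0.108 against 0.116 and for Gjc1 0.384 against 0.407.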
